A study of Mus musculus with 24 samples.

Results

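The 10 genes described are Lama1, Lama4, Lama5, Lamb1, Lamb2 and Lamc1, which encode laminin chains, Nid1 and Nid2, which encode the nidogens, Hspg2, which encodes perlecan, and Sparc, which encodes a matrix glycoprotein. They were taken by name, by a rule that uses no measured value though it was set with earlier results of these data known, from a table of 53465 genes. All 10 passed the filter on low values that left 15159 genes for testing. RNA-seq had been run on mouse embryonic stem cells, wild type (WT) or with the genotype given as Atf3 knockout (KO), at day 0 and after 3, 6 and 9 days of differentiation. The series set out to follow mesoderm and endothelium formation without ATF3, a stress-induced transcription factor. Each of the 8 combinations of genotype and day had 3 libraries, 12 per genotype, and all came from stem cells that had been grown with leukemia inhibitory factor, CHIR99021 (a GSK3 inhibitor) and PD0325901 (a MEK inhibitor). The sources used here do not give the differentiation medium, the edited part of Atf3, the number of KO clones or whether the 3 libraries of a group are separate cultures. P-values therefore measure only how far these libraries spread, and that spread may be technical.

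Basement membranes are thin sheets of matrix under epithelia, around muscle and around vessels. A laminin molecule is a trimer of 1 alpha, 1 beta and 1 gamma chain, assembled inside the cell, and its network is tied by nidogen and perlecan to a network of type IV collagen. Lama1 chains mark the membranes of the early embryo, Lama5 chains are widespread in later epithelia, and Lama4 chains lie mainly around endothelium, muscle and fat. SPARC binds collagens, type IV among them, and is made in large amounts by parietal endoderm, which lines the yolk cavity.

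Depth was 7855616 to 25274422 reads per library, as recovered from the deposited FPKM values (fragments per kilobase of exon, adjusted for library size). The genes Gm23935, Gm42418 and CT010467.1, the rRNA-type genes of the table, took between 4.42% of the reads in WT day 9 replicate 1 (95% Wilson interval 4.41% to 4.43%) and 45.6% in WT day 6 replicate 3 (45.6% to 45.7%), which kept 4272088 reads outside them. The intervals cover counting error only. Atf3 itself read 0.134 to 0.714 FPKM in 11 KO libraries and 4.17 in KO day 6 replicate 3, against 1.15 to 23.99 in WT libraries. Within each day every WT library stood above the KO libraries, and the Atf3 difference passed at days 3, 6 and 9 (adjusted p = 0.0107, 0.000813 and 5.86e-05) but not at day 0 (adjusted p = 1). KO day 6 replicate 3 and WT day 6 replicate 3 thus stand apart, and results that change without them are given without them as well. The naive stem cell markers (Nanog, Esrrb, Zfp42, Klf4, Tfcp2l1 and Tbx3) summed to 884 to 1051 FPKM in the day 0 libraries and to 16.6 to 38.3 in the day 9 libraries. Per library, the 10 genes rested on 10 reads (Lama4) to 44341 reads (Sparc). In bulk RNA, fewer cells of a type and less RNA per cell cannot be told apart.

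RefSeq promoters (GRCm38.p6, the build called mm10) were given for 6 of the 10 genes, Lama5, Lamb1, Lamb2, Nid1, Hspg2 and Sparc. Those of Lama5, Lamb1 and Nid1 are shown because these genes took different courses by day 3: Lamb1 and, in WT cells, Lama5 rose and Nid1 fell. The letters are those upstream of the first annotated exon, at chr2:180225860-180226109 on the minus strand for Lama5, chr12:31265043-31265233 on the plus strand for Lamb1 and chr13:13437352-13437550 on the plus strand for Nid1. Capitals mark GC boxes (GGGCGG) and CCAAT boxes (CCAAT) on either strand.
Lama5: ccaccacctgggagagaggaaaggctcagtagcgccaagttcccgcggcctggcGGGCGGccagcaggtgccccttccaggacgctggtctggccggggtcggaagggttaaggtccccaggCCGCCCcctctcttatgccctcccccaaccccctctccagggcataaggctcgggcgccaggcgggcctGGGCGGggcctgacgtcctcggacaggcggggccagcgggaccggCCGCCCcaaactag
Lamb1: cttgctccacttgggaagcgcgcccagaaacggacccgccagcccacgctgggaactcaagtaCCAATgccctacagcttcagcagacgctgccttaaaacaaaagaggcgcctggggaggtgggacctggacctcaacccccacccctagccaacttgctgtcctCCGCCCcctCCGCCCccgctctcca
Nid1: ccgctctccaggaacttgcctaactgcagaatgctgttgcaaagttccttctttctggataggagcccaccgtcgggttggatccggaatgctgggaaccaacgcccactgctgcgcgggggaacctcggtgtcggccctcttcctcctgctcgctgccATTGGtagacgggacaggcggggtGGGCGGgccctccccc

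In the 250 bases before the RefSeq start, GC boxes were found in 4 of the 6 promoters and in 32.74% of 32851 RefSeq promoters. CCAAT boxes were found in 2 of the 6, Lamb1 and Nid1, and in 33.85% of all promoters. No promoter of the 6 held the CRE (TGACGTCA), which ATF/CREB factors bind, in this window on either strand. The AP-1 site searched for, spelled TGANTCA, was not found there either. The same held for the letters AGATAA, which GATA factors are known to bind. It also held for the TATA box, spelled TATAAA. Among all promoters 1.546%, 6.749%, 9.988% and 12.37% held these 4. The window held 5 bases before the first annotated exon base in Sparc and 124 in Lamb2, against 191 to 250 in the others. The Sparc window lies within the annotated gene, so a missing match there does not describe the sequence upstream of that gene. No match to 1 motif overlapped a match to another in the letters printed, and a match is a description of the sequence, not a site in use.

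Across differentiation these genes did not move as a block. By day 3 most of them fell in both genotypes, Lamb1 rose, and by day 6 Lama4, Lamb2 and Sparc had risen as well. In WT cells 2 of the 10 rose and 6 fell from day 0 to day 3 (adjusted p of limma under the threshold of 0.05), where 11.4% of all genes tested rose and 14.5% fell. From day 0 to day 6, 6 rose and 3 fell (22.5% and 25.2% of all genes), and from day 0 to day 9, 4 rose and 1 fell (22.2% and 23.8%). In KO cells 1 rose and 6 fell by day 3 (11.9% and 16.2% of all genes), 4 rose and 4 fell by day 6 (21.4% and 22.3%), and 4 rose and 1 fell by day 9 (22.4% and 22.7%). Between days 3 and 6 the WT counts were 4 higher and 1 lower (19.5% and 19.1% of all genes) and the KO counts 6 and 1 (17.7% and 14.9%). Between days 6 and 9 they were 3 higher and 2 lower in WT cells (8.15% and 5.13%) and 2 higher and 1 lower in KO cells (6.06% and 2.45%). When limma was fitted to the compared groups alone, this last step kept 1 call in WT cells and 0 in KO cells. Rescaled to TPM, 28 of the 62 calls over all these steps were lost, which left 1 from day 0 to day 3 in WT cells (Nid1) and 2 in KO cells (Lama1 and Nid1). TPM divides by the summed FPKM of all genes, the rRNA-type genes included. It shifts the median of all genes, as given at the end, and its values for single genes carry that shift. From day 0 to day 3 in WT cells the differences behind the lost calls moved little. Lamc1 read -1.26 and Lamb1 1.52 under TPM, beside -1.32 and 1.45 before rescaling. Why those calls were lost was not tested. Equal sums without rRNA-type genes lost 7 calls. The median log2 difference of the 10 genes from day 0 was -0.79, 0.74 and 0.46 in WT cells and -0.97, 0.33 and 0.20 in KO cells, and the median of all genes tested lay between -0.02 and 0.03. Of the steps from day 0, 7, 7 and 5 genes passed in both genotypes with the same direction. The share of all genes that did so was not computed, so these counts have nothing to be set against. The plot of FPKM by day shows every library.

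**Figure D1:**
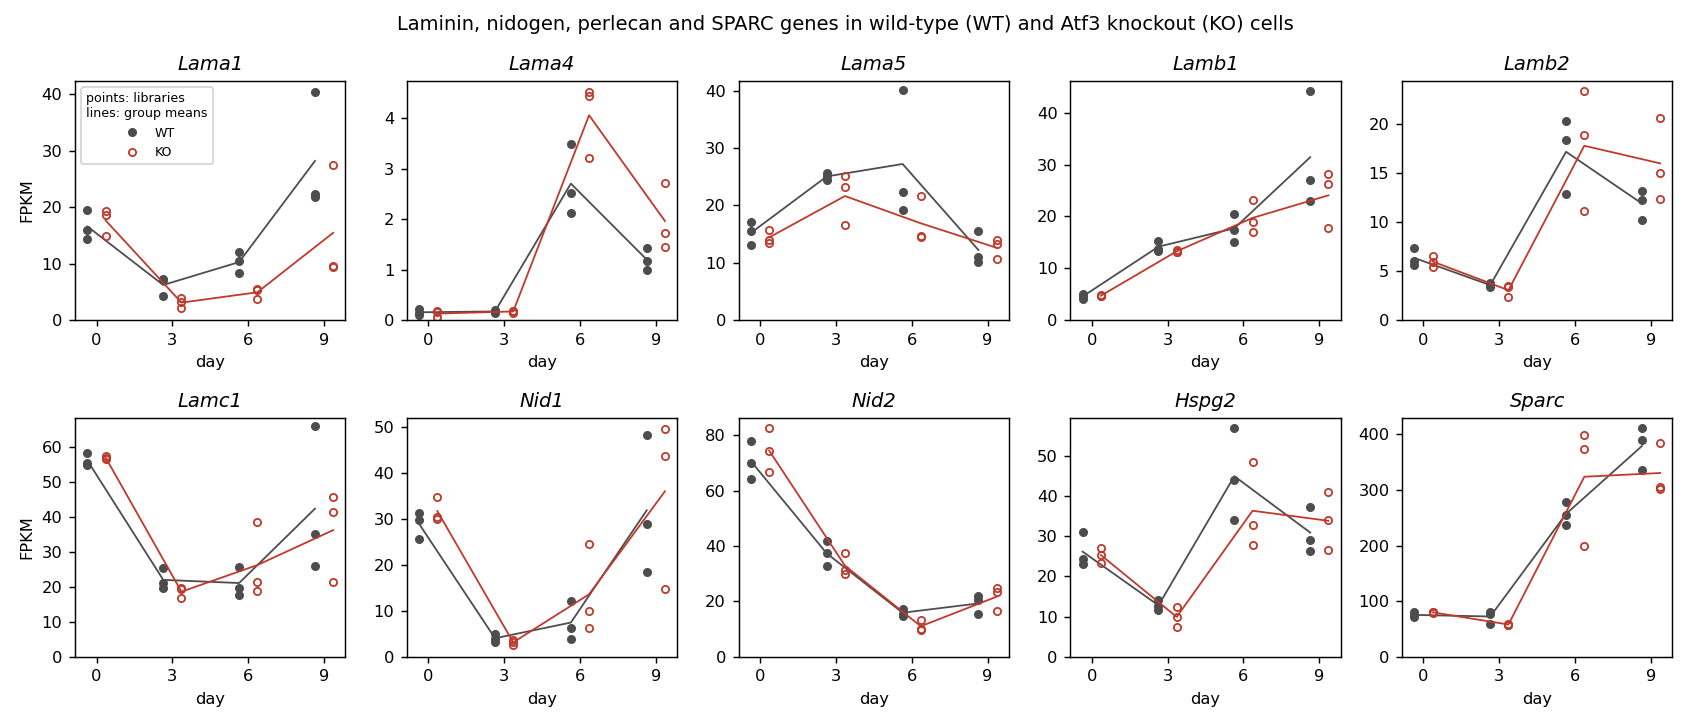
FPKM of each of the 10 genes (vertical axes, each from 0) against day (horizontal axis) in WT (filled) and KO (open) libraries, 1 point per library, with lines through the group means of 3 libraries. Nid1, Lamc1, Lama1 and Hspg2 have their lowest group means at day 3 or day 6, Nid2 is lowest at day 6, and Sparc reaches 199 to 412 FPKM at days 6 and 9.

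Between genotypes, none of the 10 genes passed at any day. The counts were 0 of 10 at day 0 and at day 3 (0.0132% of all genes passed at each), 0 at day 6 (0.726%) and 0 at day 9 (0.963%). The mean over the 4 days also gave 0 (0.198%). With voom on recovered reads each of these counts was 0 as well. At an unadjusted p under 0.05 in limma there were 0, 1, 4 and 2 of the 10 genes at the 4 days (1.11%, 0.798%, 10% and 5.2% of all genes) and 2 in the mean (3.81%). The KO minus WT difference at days 3, 6 and 9 against that at day 0 was passed by 0 of 10 genes (0.0132%, 0.112% and 0.264% of all genes), with 0, 3 and 1 at an unadjusted p under 0.05 (0.745%, 4.27% and 3.06% of all genes) and 0 by voom. Leaving out KO day 9 replicate 1 gave 1 gene, Lama1, at day 9 and in the mean. KO and WT libraries did not overlap for 0 of the 10 genes at day 0 (7.51% of all genes), for Lama1 at day 3 (3.79%), for Lama1 and Nid2 at day 6 (7.92%) and for Lama4 at day 9 (10.5%). The median KO minus WT difference of the 10 genes was 0.03, -0.22, 0.08 and 0.08 by day, and that of all genes tested was between -0.02 and 0.02. The plot of KO minus WT shows the intervals.

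**Figure D2:**
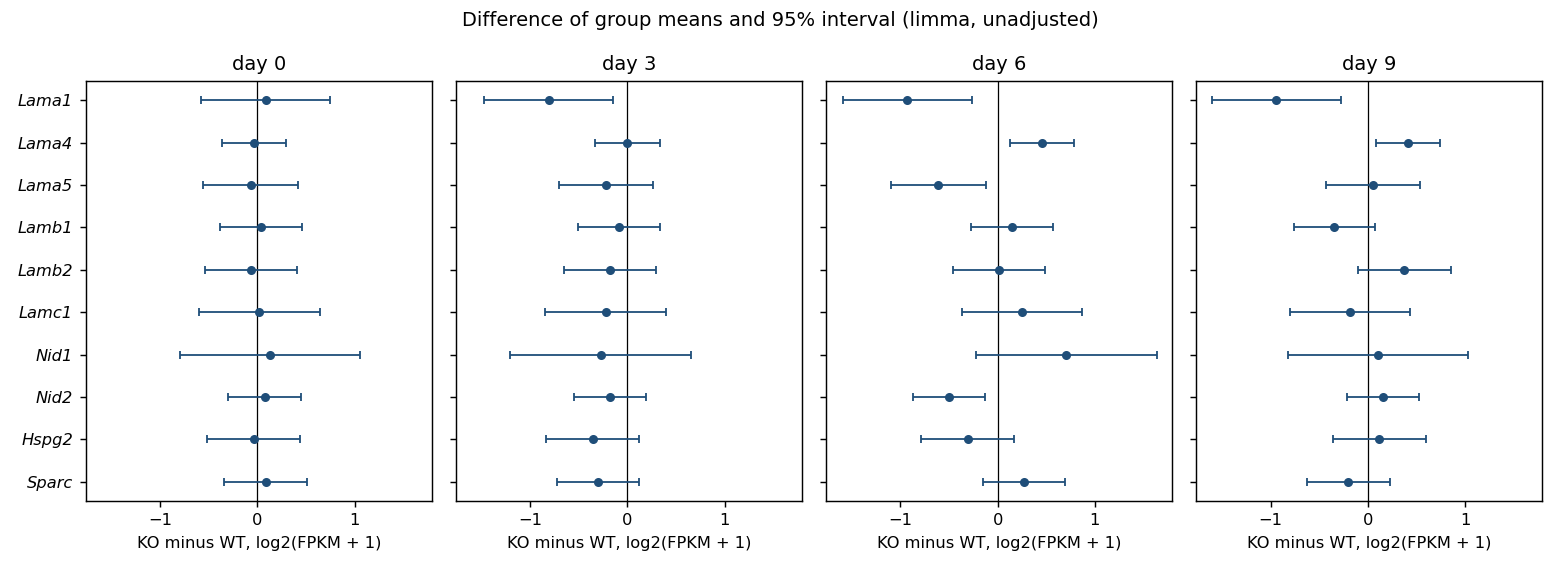
Difference of the KO and WT group means in log2(FPKM + 1) (horizontal axis) for each gene (rows) at the 4 days (panels), with 95% intervals from limma that are not adjusted for the number of genes. Lama1 lies at -0.81, -0.93 and -0.94 at days 3, 6 and 9, and at day 0 every interval includes 0.

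Lama1 (ENSMUSG00000032796, chromosome 17, 67697259 to 67822647 in mm10, plus strand) fell after day 0 and rose again between days 6 and 9. Its WT libraries, in the order of replicates 1, 2 and 3, read 19.4, 14.4 and 15.9 FPKM at day 0, 4.22, 7.34 and 7.08 at day 3, 12.1, 8.32 and 10.4 at day 6, and 40.4, 22.4 and 21.7 at day 9. Every WT value at days 3 and 6 lay under those of day 0, and every value at day 9 lay above them. Of these, the WT differences at days 6 and 9 did not pass in limma, as given below. KO libraries read 18.7, 14.9 and 19.3 FPKM at day 0 (replicate 1, the library whose column carries no sample number, and replicate 2), 2.2001, 3.16 and 3.90 at day 3, 5.39, 5.58 and 3.79 at day 6, and 27.4, 9.43 and 9.50 at day 9. KO replicate 1 at day 9 stood far above the other KO libraries of that day. The log2 difference from day 0 to day 3 was -1.31 ± 0.32 (SE) in WT cells (adjusted p = 0.00411) and -2.203 ± 0.32 in KO cells (adjusted p = 2.05e-05). From day 0 to day 6 it was -0.65 in WT cells (adjusted p = 0.102) and -1.66 in KO cells (adjusted p = 0.00025). To day 9 it was 0.68 (adjusted p = 0.0868) and -0.34 (adjusted p = 0.409). From day 6 to day 9 it was 1.33 ± 0.32 in WT cells (adjusted p = 0.0091) and 1.32 ± 0.32 in KO cells (adjusted p = 0.0106). These later calls were lost without WT day 9 replicate 1 (adjusted p = 0.0612) and without KO day 9 replicate 1 (adjusted p = 0.0783).

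Lama1 had the lowest KO to WT ratio of the 10 genes at days 3, 6 and 9. The KO mean was 3.09 ± 0.851 FPKM against 6.21 ± 1.73 in WT at day 3, 4.92 ± 0.987 against 10.3 ± 1.89 at day 6, and 15.5 ± 10.4 against 28.2 ± 10.6 at day 9 (SD, n = 3), which is 49.7%, 47.9% and 54.9% of the WT mean. At day 0 it was 17.6 ± 2.35 against 16.6 ± 2.57. At days 3 and 6 the highest KO library lay below the lowest WT library, while at day 9 KO replicate 1 stood above 2 WT libraries. The log2 differences were 0.09, -0.81, -0.93 and -0.94 (SE 0.32 each) and limma's adjusted p was 1, 1, 0.267 and 0.359, so none passed. Without KO day 6 replicate 3 the day 6 difference was -0.78. The mean over the 4 days, -0.65 ± 0.16 (95% interval -0.98 to -0.32), did not pass either (adjusted p = 0.152). Without KO day 9 replicate 1 the day 9 difference was -1.42 and passed (adjusted p = 0.014), while without KO replicate 2 or 3 it was -0.70 in both cases and did not. Parietal endoderm markers (Thbd, Plat, Stra6, Pth1r, Sox7, Cited1 and Fst) also stood lower in KO libraries at day 9. They summed to 42.6 to 65.9 FPKM in WT and 26.0 to 35.8 in KO libraries. None was at 0 throughout a group, and 0 of 6 tested passed. Those of primitive and visceral endoderm summed to 15.1 to 27.6 FPKM in WT and 10.6 to 14.0 in KO libraries at day 3, with 0 of 11 passing. At day 9 they overlapped, at 256 to 344 in WT and 77.7 to 326 in KO libraries. Trophoblast markers summed to 59.1 to 106 FPKM in WT and 12.5 to 28.1 in KO libraries at day 9, without overlap. Of 5 tested, 2 were lower, and 0.963% of all genes passed at that day in either direction. At day 6, when Lama1 was low too, all 3 lists overlapped between genotypes. For parietal endoderm KO libraries summed to 23.2 to 101 FPKM and WT libraries to 42.1 to 83.9. For primitive and visceral endoderm these were 72.8 to 592 and 109 to 235, and for trophoblast 32.6 to 69.3 and 48.9 to 50.9. Of 6 parietal endoderm genes tested at day 6, 1 was lower in KO cells, beside 0.726% of all genes passing in either direction. No gene of the other lists passed at that day. KO day 9 replicate 1 was highest of its group in parietal endoderm markers (35.8) and lowest in the other lists (77.7 and 12.5). At day 0 both endoderm lists already stood lower in KO libraries without overlap, while Lama1 did not. Parietal endoderm markers summed to 2.26 to 2.79 FPKM in KO and 2.85 to 3.00 in WT libraries. Those of primitive and visceral endoderm summed to 4.76 to 6.03 and 7.06 to 8.12, and none tested passed in either list. The part of these 3 marker lists in the result was not tested.

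Lama5 (ENSMUSG00000015647, chromosome 2, 180176373 to 180225859, minus strand), whose promoter letters are given above, stood higher at days 3 and 6, when Lama1 was low. In WT cells it read 17.1, 13.1 and 15.5 FPKM at day 0, 25.7, 25.1 and 24.4 at day 3, 22.3, 19.2 and 40.2 at day 6, and 15.6, 11.1 and 10.1 at day 9. KO values were 13.5, 13.9 and 15.8 at day 0, 16.6, 25.2 and 23.2 at day 3, 21.6, 14.6 and 14.5 at day 6, and 13.4, 10.6 and 13.9 at day 9. The WT values of days 3 and 6 all lay above day 0, and the library at 40.2 is the one with the most rRNA-type reads. Lama5 rose in WT cells from day 0 to day 3 (0.69 ± 0.23, adjusted p = 0.0327) and to day 6 (0.74 ± 0.23, adjusted p = 0.0135), and fell from day 6 to day 9 (-1.04 ± 0.23, adjusted p = 0.00551), a step that was -0.74 without WT day 6 replicate 3 (adjusted p = 0.0476) and read 0.0065 after rescaling to TPM. The day 6 call was lost without WT day 6 replicate 3 (0.43, adjusted p = 0.111) and without WT day 0 replicate 2 (0.64, adjusted p = 0.0608). At day 3 it was lost without any 1 of WT day 0 replicates 2 and 3 or WT day 3 replicates 1, 2 and 3 (adjusted p from 0.0638 to 0.122), and with a replicate block within each day (adjusted p = 0.106). In KO cells none of the steps from day 0 passed (adjusted p = 0.0931, 0.528 and 0.553), and the KO to WT difference at day 6 was -0.61 ± 0.23 (adjusted p = 0.36), with overlapping values, and was -0.30 without WT day 6 replicate 3 and 0.10 after rescaling to TPM.

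Lama4 (ENSMUSG00000019846, chromosome 10, 38965515 to 39110188, plus strand) was the lowest of the 10 genes in every group. WT libraries read 0.142, 0.104 and 0.218 FPKM at day 0, 0.164, 0.141 and 0.208 at day 3, 3.48, 2.12 and 2.51 at day 6, and 1.42, 1.17 and 0.998 at day 9. KO libraries read 0.155, 0.0599 and 0.171 at day 0, 0.181, 0.144 and 0.188 at day 3, 4.44, 4.51 and 3.21 at day 6, and 1.73, 1.45 and 2.71 at day 9. It was near 0 until day 3, peaked at day 6 and came down by day 9 in both genotypes. The mean rose 15.8-fold in WT cells and 23.7-fold in KO cells between days 3 and 6 (log2 differences 1.64 ± 0.16 and 2.10 ± 0.16 on the log2(FPKM + 1) scale, which shortens changes of low genes, adjusted p = 1.75e-07 and 6.09e-09). It fell from day 6 to day 9 by 0.74 in WT (adjusted p = 0.00417) and 0.78 in KO cells (adjusted p = 0.00259). Both of these calls were lost under TPM (-0.064 and -0.53, adjusted p = 0.881 and 0.452), with equal sums without rRNA-type genes (-0.47 and -0.56, adjusted p = 0.0788 and 0.053) and with the compared groups alone (adjusted p = 0.131 and 0.192). At day 9 the lowest KO library lay above the highest WT library, and at day 6 the lowest KO library lay under the highest WT library. Its KO to WT difference, 0.46 ± 0.16 at day 6 (adjusted p = 0.283), was 0.41 ± 0.16 by day 9 (adjusted p = 0.584), and neither passed. Endothelial markers (9 genes, Cdh5, Pecam1 and Kdr among them) stood at 36.6 to 45.2 FPKM in KO and 17.9 to 20.3 in WT libraries at day 9, with 4 of 8 tested higher and none at 0 throughout a group. Heart muscle markers summed to 185 to 637 and 45.5 to 91.6 FPKM, with 5 of 6 higher. Among all genes tested, 0.963% passed at day 9 in either direction. In WT cells the endothelial sums averaged 24.99, 5.96, 8.54 and 19.2 FPKM in the order of days. In KO cells they averaged 30.6, 5.11, 12.2 and 42.1. In both genotypes these sums were higher at day 0, when Lama4 was near 0, than at day 6, when it peaked. They rose from day 6 to day 9, while Lama4 fell. At day 6 both lists overlapped between genotypes, with heart muscle at 7.58 to 39.6 FPKM in KO and 18.4 to 70.5 in WT libraries. The part of both lists in the level of Lama4 was not tested.

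FPKM is per length, so the alpha chain genes can be set against each other within a library. Of the summed FPKM of the 5 alpha chain genes, the Lama1 share in WT cells was 51.6% ± 1.32, 19.6% ± 4.87, 26.4% ± 6.29 and 66.7% ± 2.93 in the order of days (SD, n = 3). Lama5 held 47.5% ± 1.13, 79.5% ± 4.75, 66.3% ± 8.56 and 29.8% ± 2.49. In WT cells the lead thus passed from Lama1 to Lama5 and back. In KO cells the Lama1 share was 54.5% ± 3.12, 12.3% ± 1.68, 19.1% ± 3.00 and 47.8% ± 14.8, and the Lama5 share 44.7% ± 3.10, 86.4% ± 1.84, 64.8% ± 5.27 and 44.1% ± 11.2. At day 9 Lama5 still led in KO replicates 2 and 3 (48.8% against 43.4% and 52.2% against 35.7%). Lama1 led in KO replicate 1 (64.2% against 31.3%).

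Over the 4 days the Lama1 share averaged 33.4% in KO and 41.1% in WT cells, a difference of -7.70 points (exact permutation test within days, two-sided, p = 0.0115, adjusted over 5 shares p = 0.0288). KO was lower at days 3, 6 and 9 and higher at day 0. This call was lost without any 1 of WT day 6 replicate 1 (-7.03 points), WT day 9 replicate 1 (-7.29), replicate 2 (-8.00) and replicate 3 (-7.82) or the unnumbered KO day 0 library (-7.31), with adjusted p of 0.0525 to 0.0972. The Lama4 share averaged 5.95% in KO and 2.74% in WT cells, a difference of 3.20 points (exact permutation test, p = 0.00181, adjusted p = 0.00906, and up to 0.0341 with a library left out). WT libraries held 9.15%, 7.13% and 4.72% at day 6 and 2.47%, 3.37% and 3.03% at day 9. KO libraries held 14.1%, 18.2% and 14.9% at day 6 and 4.05%, 6.67% and 10.2% at day 9. The groups did not overlap at either day, and an exact permutation p of 0.1 is the smallest that 3 against 3 allows for 1 day. Smooth muscle markers also stood apart at day 6, at 197 to 328 FPKM in KO and 58.1 to 156 in WT libraries (0 of 4 tested passing). So did erythroid markers, at 160 to 2406 and 20.9 to 81.2 FPKM (3 of 3 higher, beside 0.726% of all genes passing in either direction). At day 9 both lists overlapped. Smooth muscle markers then summed to 1001 to 1401 in KO and 687 to 1301 in WT libraries (1 of 4 higher, beside 0.963% of all genes). Erythroid markers summed to 86.2 to 369 and 168 to 406 (0 of 3 passing). The part of these lists in the Lama4 share was not tested. A share also depends on the other alpha chain genes. At day 6 the KO mean FPKM was 150% of WT for Lama4, 47.9% for Lama1 and 62.0% for Lama5, and the Lama4 values overlapped. At day 9 these were 164%, 54.9% and 103%. For Lama5 the share differed by 4.25 points (adjusted p = 0.228).

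**Figure D3:**
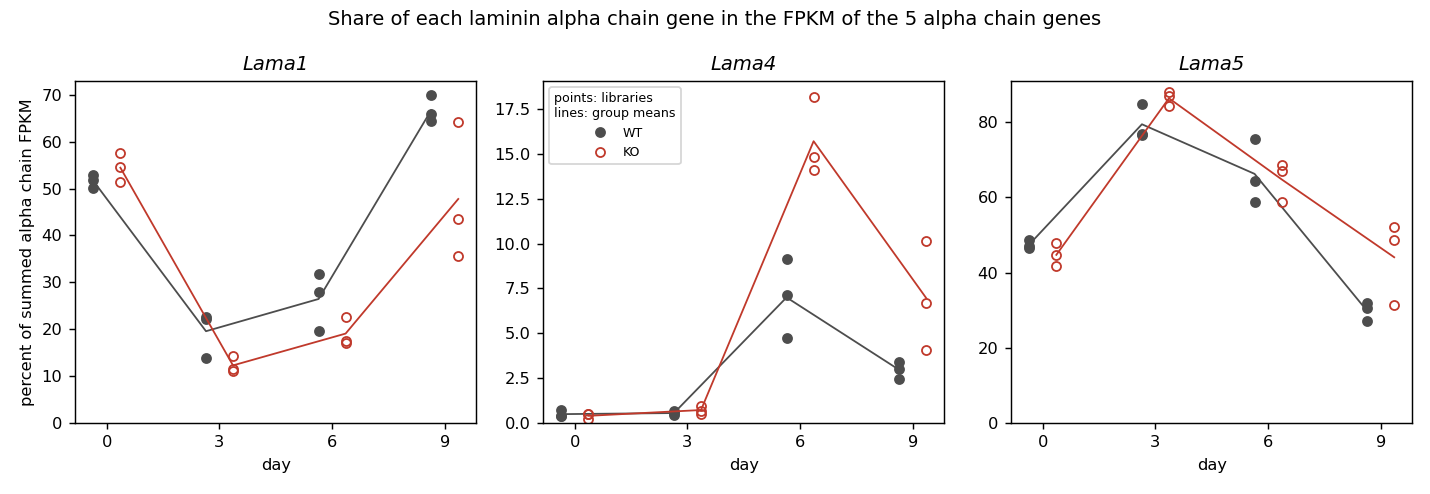
Share of Lama1, Lama4 and Lama5 in the summed FPKM of the 5 laminin alpha chain genes (vertical axes, percent, from 0) by day (horizontal axis) in WT (filled) and KO (open) libraries, with lines through the group means. The KO points for Lama4 lie above the WT points at days 6 and 9, at 14.1% to 18.2% against 4.72% to 9.15% and at 4.05% to 10.2% against 2.47% to 3.37%.

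Lamb1 (ENSMUSG00000002900, chromosome 12, 31265234 to 31329644, plus strand), the beta chain gene of most embryonic laminins, rose by day 3 and stayed up. In WT cells it read 4.08, 4.97 and 4.60 FPKM at day 0, 15.3, 13.4 and 13.8 at day 3, 17.5, 20.5 and 15.1 at day 6, and 44.1, 27.1 and 23.0 at day 9. KO values were 4.88, 4.64 and 4.55 at day 0, 13.5, 13.2 and 13.1 at day 3, 17.1, 23.1 and 18.9 at day 6, and 26.2, 17.8 and 28.2 at day 9. No value of a later day reached down to day 0 in either genotype. From day 0 to day 3 the mean rose 3.11-fold in WT (1.45 ± 0.20, adjusted p = 1.26e-05) and 2.83-fold in KO cells (1.33 ± 0.20, adjusted p = 3.55e-05). By day 9 it was 6.90-fold and 5.13-fold above day 0 (2.49 ± 0.20, adjusted p = 3.13e-09, and 2.11 ± 0.20, adjusted p = 2.99e-08). The smaller step from day 6 to day 9 in WT cells (0.75 ± 0.20, adjusted p = 0.0181) was lost without WT day 9 replicate 1 (0.48, adjusted p = 0.119), WT day 6 replicate 3 (0.65, adjusted p = 0.0998) or WT day 6 replicate 1 (adjusted p = 0.0505). The step from day 3 to day 6 in KO cells (0.53 ± 0.20) passed narrowly (adjusted p = 0.0493). It was lost with a replicate block (adjusted p = 0.0681) and without any 1 of 17 libraries, all those of KO day 0, KO day 3, WT day 0 and WT day 3 among them.

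Lamb2 (ENSMUSG00000052911, chromosome 9, 108479736 to 108490530, plus strand), the beta chain gene of muscle, vessel and kidney laminins, dipped at day 3 and rose by day 6. WT values were 7.39, 5.61 and 6.02 FPKM at day 0, 3.38, 3.74 and 3.56 at day 3, 18.4, 12.8 and 20.3 at day 6, and 10.2, 13.2 and 12.2 at day 9. KO values were 5.93, 5.46 and 6.54 at day 0, 2.34, 3.44 and 3.37 at day 3, 23.3, 18.9 and 11.1 at day 6, and 12.3, 15.0 and 20.6 at day 9. Days 6 and 9 lay wholly above day 0 in both genotypes. Between days 3 and 6 the mean rose 4.82-fold in WT (1.97 ± 0.23, adjusted p = 1.68e-06) and 5.83-fold in KO cells (2.17 ± 0.23, adjusted p = 4.19e-07). The fall to day 3 was -0.68 in WT (adjusted p = 0.0319) and -0.79 in KO cells (adjusted p = 0.0121). With a replicate block within each day both were lost (adjusted p = 0.118 and 0.0577), and voom did not call it in WT cells (adjusted p = 0.0624). It was also lost without WT day 0 replicate 1 or 3 or any WT day 3 library (adjusted p from 0.052 to 0.129), and in KO cells without day 0 replicate 2 (0.0513) or day 3 replicate 1 (0.0667). The Lamb1 share of the 2 beta genes was 42.0% ± 5.81, 79.8% ± 1.90, 51.0% ± 9.60 and 71.2% ± 8.64 by day in WT cells and 44.1% ± 2.62, 81.4% ± 3.39, 53.4% ± 10.5 and 59.99% ± 7.15 in KO cells (SD, n = 3). KO and WT shares differed by -1.30 points over the 4 days (exact permutation test within days, adjusted p = 0.661).

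Lamc1 (ENSMUSG00000026478, chromosome 1, 153218922 to 153332786, minus strand), the gamma chain gene shared by most laminins, fell to less than 50% of its day 0 level by day 3 in both genotypes. In WT cells it read 55.1, 55.4 and 58.3 FPKM at day 0, 25.5, 21.0 and 19.6 at day 3, 17.8, 25.9 and 19.8 at day 6, and 66.1, 35.2 and 26.1 at day 9. KO values were 56.6, 57.1 and 57.7 at day 0, 19.4, 19.6 and 16.9 at day 3, 18.8, 21.5 and 38.5 at day 6, and 45.9, 21.5 and 41.5 at day 9. The day 0 libraries of both genotypes lay within 55.1 to 58.3 FPKM, while those of day 9 ran from 21.5 to 66.1. The difference from day 0 to day 3 was -1.32 ± 0.30 in WT (adjusted p = 0.00214) and -1.57 ± 0.30 in KO cells (adjusted p = 0.000426), and to day 6 it was -1.39 (adjusted p = 0.000721) and -1.16 (adjusted p = 0.00338). At day 9 neither genotype differed from day 0 past the threshold (adjusted p = 0.178 and 0.0587). KO day 6 replicate 3 stood above the other 5 libraries of that day, and without it the KO to WT difference there went from 0.25 to -0.05.

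The 2 nidogen genes, whose proteins link laminin to type IV collagen, took separate courses. Nid1 (ENSMUSG00000005397, chromosome 13, 13437551 to 13512269, plus strand) read 25.6, 31.2 and 29.8 FPKM in WT libraries at day 0, 5.00, 3.32 and 3.76 at day 3, 6.25, 12.2 and 3.86 at day 6, and 48.2, 28.9 and 18.4 at day 9. KO libraries read 30.3, 29.96 and 34.7 at day 0, 3.55, 2.65 and 3.19 at day 3, 6.16, 10.03 and 24.6 at day 6, and 43.6, 14.7 and 49.6 at day 9. At day 3 the mean was 13.9% of that of day 0 in WT cells (-2.58 ± 0.45, adjusted p = 0.00016) and 9.89% in KO cells (-2.99 ± 0.45, adjusted p = 3.02e-05), the largest fall among the 10 genes at that day. Its promoter and that of Lamb1, a gene that rose over the same 3 days, both hold CCAAT and GC boxes, as shown above. Nid1 rose 4.28-fold from day 6 to day 9 in WT cells (1.98 ± 0.45, adjusted p = 0.00586, or 1.64 and 0.0512 without WT day 6 replicate 3). In KO cells it rose from day 3 to day 6 (1.62 ± 0.45, adjusted p = 0.00834), a call that held without KO day 6 replicate 3 (adjusted p = 0.0448) and was lost with equal sums without rRNA-type genes (1.39, adjusted p = 0.0659) and under TPM (1.97, adjusted p = 0.0684). KO at day 6 was still below day 0 (-1.37, adjusted p = 0.017), a call lost without KO day 6 replicate 1 (-0.96, adjusted p = 0.107), KO day 6 replicate 2 (-1.27, 0.0577) or KO day 0 replicate 2 (-1.30, 0.0518). The KO to WT difference at day 6, 0.71 ± 0.45, did not pass (adjusted p = 0.59), and without replicate 3 of both genotypes it was -0.14.

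Nid2 (ENSMUSG00000021806, chromosome 14, 19751265 to 19811787, plus strand) was the more abundant nidogen gene in every library of days 0 and 3. WT libraries read 77.8, 69.8 and 64.2 FPKM at day 0, 37.5, 41.7 and 32.7 at day 3, 14.8, 15.4 and 17.4 at day 6, and 21.9, 20.6 and 15.3 at day 9. KO libraries read 74.2, 82.7 and 66.6 at day 0, 29.9, 37.5 and 31.3 at day 3, 9.79, 9.90 and 13.4 at day 6, and 25.0, 16.7 and 23.4 at day 9. It fell at both steps up to day 6, without overlap between days. The difference from day 0 to day 6 was -2.08 ± 0.18 in WT (adjusted p = 8.85e-09) and -2.66 ± 0.18 in KO cells (adjusted p = 2.6e-10). From day 6 to day 9 it rose in KO cells (0.91 ± 0.18, adjusted p = 0.00189) and read 0.25 ± 0.18 in WT cells (adjusted p = 0.353); the difference between these steps was not tested. At day 6 the highest KO library lay below the lowest WT library, with a KO mean of 69.3% of WT. That difference, -0.50 ± 0.18, did not pass (adjusted p = 0.299) and read 0.19 after rescaling to TPM. The Nid1 share of the nidogen FPKM was 29.1% ± 3.78, 9.82% ± 2.25, 30.6% ± 13.02 and 60.6% ± 7.37 by day in WT cells and 29.96% ± 3.94, 8.83% ± 2.03, 51.2% ± 13.1 and 59.4% ± 11.2 in KO cells (SD, n = 3). Over the 4 days the genotypes differed by 4.82 points (exact permutation test within days, adjusted p = 0.281).

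Hspg2 (ENSMUSG00000028763, chromosome 4, 137468769 to 137570630, plus strand) encodes perlecan, the large heparan sulfate proteoglycan of basement membranes. It fell by day 3, had its highest mean at day 6 and at day 9 did not differ from day 0 past the threshold (adjusted p = 0.439 in WT and 0.185 in KO cells). WT libraries read 31.2, 23.1 and 24.3 FPKM at day 0, 12.6, 14.2 and 11.6 at day 3, 43.9, 33.9 and 57.1 at day 6, and 37.2, 29.2 and 26.4 at day 9. KO libraries read 23.4, 25.5 and 27.1 at day 0, 7.53, 12.4 and 9.89 at day 3, 48.6, 32.7 and 27.8 at day 6, and 41.0, 26.5 and 34.1 at day 9. Day 3 lay wholly under the other days in both genotypes. The difference from day 0 to day 3 was -0.97 ± 0.23 in WT (adjusted p = 0.00317) and -1.29 ± 0.23 in KO cells (adjusted p = 0.000215). From day 3 to day 6 it was 1.71 ± 0.23 (adjusted p = 1.02e-05) and 1.76 ± 0.23 (adjusted p = 6.25e-06). WT cells were above day 0 at day 6 (0.74 ± 0.23, adjusted p = 0.012), a call lost without WT day 6 replicate 3 (0.56, adjusted p = 0.0715) or WT day 0 replicate 2 (0.66, adjusted p = 0.0512). In KO cells that step was 0.47 ± 0.23 (adjusted p = 0.105).

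Sparc (ENSMUSG00000018593, chromosome 11, 55394500 to 55423183, minus strand) had the highest level of the 10 genes in every group. WT libraries read 79.7, 71.9 and 74.4 FPKM at day 0, 59.8, 81.4 and 76.3 at day 3, 255, 237 and 279 at day 6, and 335, 390 and 412 at day 9. KO libraries read 81.2, 80.6 and 78.3 at day 0, 57.7, 56.7 and 59.8 at day 3, 374, 399 and 199 at day 6, and 305, 302 and 384 at day 9. All later values from day 6 on lay above those of days 0 and 3. Between days 3 and 6 the mean rose 3.55-fold in WT (1.82 ± 0.20, adjusted p = 1.17e-06) and 5.58-fold in KO cells (2.39 ± 0.20, adjusted p = 2.96e-08). KO day 6 replicate 3, at 199, was lower than every other library of days 6 and 9. The markers of parietal endoderm in the 3 KO day 6 libraries summed to 101, 69.9 and 23.2 FPKM. Those of primitive and visceral endoderm summed to 592, 530 and 72.8, lowest in that same library. This was not particular to endoderm. Heart muscle (39.6, 22.1 and 7.58), mesenchyme and fibroblast (99.6, 116 and 61.9), trophoblast (69.3, 58.2 and 32.6) and erythroid markers (1988, 2406 and 160) were also lowest there. Endothelial, smooth muscle and naive stem cell markers were not. The part of these lists in the level of Sparc was not tested.

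Most of the other basement membrane genes rose across differentiation. Of 14 other basement membrane genes tested (of 19 listed), 12 rose and none fell from day 0 to day 9 in WT cells, and the same counts held in KO cells (22.2% of all genes tested rose in WT and 22.4% in KO cells). The largest rises in WT cells were in Col4a2 (4.46 ± 0.24, adjusted p = 1.4e-11), Tinagl1 (4.13 ± 0.27) and Col4a1 (4.04 ± 0.24). Col4a1 and Col4a2, the ubiquitous type IV collagen chains, went from 6.04 to 119 and from 2.98 to 87.6 FPKM in WT cells and from 4.78 to 83.4 and 2.02 to 64.7 in KO cells. Pxdn, the peroxidasin that cross-links type IV collagen, rose by 3.61 ± 0.25 in KO cells, where Col4a2 (4.43) and Col4a1 (3.81) were the other 2 largest. Median differences of this list were 1.75 and 1.92, beside -0.01 and -0.02 over all genes tested. Between genotypes 1 of the 14 passed, at day 6, where 0.726% of all genes did. This was Egflam, which encodes pikachurin and was lower in KO cells (0.764 against 2.23 FPKM, -0.85 ± 0.18, limma adjusted p = 0.031).

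Of 10 receptors for laminin and type IV collagen tested, 5 rose and 2 fell by day 9 in WT cells, and 5 rose and 3 fell in KO cells. Over all genes tested, 22.2% rose and 23.8% fell at this step in WT cells and 22.4% and 22.7% in KO cells, so the receptors that fell were at about the share of all genes. Itgb1, the beta 1 integrin subunit, went from 22.7 to 110 FPKM in WT cells (2.23 ± 0.43, adjusted p = 0.00024) and from 18.1 to 98.5 in KO cells (2.37 ± 0.43, adjusted p = 0.00013). Sdc2 (2.12 and 2.10), a cell surface proteoglycan, and Itga3 (1.33 and 1.55), a laminin-binding integrin subunit, rose as well. Of 13 genes of heparan sulfate synthesis, which builds the chains carried by perlecan, 7 rose and 2 fell in WT cells and 7 rose and none fell in KO cells. Hs3st1 led in both (2.61 and 1.96), with Hs6st2 (1.31) and B3gat3 (1.13) next in WT cells and Ndst1 (1.27) and B3gat3 (1.19) in KO cells. The medians of the 2 lists were 0.49 and 0.52 in WT cells and 0.48 and 0.56 in KO cells. None of the genes in either list passed between KO and WT at any day.

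Of 5 relatives of Sparc tested, 3 rose and 1 fell by day 9 in both genotypes, beside the 22.2% up and 23.8% down of all genes in WT cells and 22.4% and 22.7% in KO cells. Fstl1 rose from 10.2 to 53.5 FPKM in WT cells (2.30 ± 0.20) and from 8.78 to 65.1 in KO cells (2.76 ± 0.20), Smoc2 rose (2.00 and 2.24), and Smoc1 fell (-1.66 and -1.78). Of 12 matrix proteases and inhibitors 10 rose and 1 fell in both genotypes. Timp2, an inhibitor of matrix metalloproteinases, led (3.79 ± 0.19 and 4.25 ± 0.19), with Mmp2, a gelatinase (3.23 and 3.93), and Timp3 (2.86) in WT or Plat (3.02) in KO cells. Of 10 genes of secretion and collagen folding 5 rose in WT and 6 in KO cells, with none lower. Serpinh1, the collagen chaperone, went from 17.8 to 262 and from 15.8 to 254 FPKM (3.803 ± 0.17 and 3.93 ± 0.17), and P4ha2, a collagen prolyl hydroxylase, rose by 2.84 and 2.74. The medians of these 3 lists were 1.10, 2.01 and 0.84 in WT cells and 1.46, 2.01 and 0.79 in KO cells, and none of their genes passed between genotypes at any day.

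Over the 24 libraries, Pearson correlations of log2(FPKM + 1) among the 10 genes ranged widely. They are descriptions, since libraries of 1 group share their day and genotype. The highest were between Lamb2 and Sparc (0.92), Lamb2 and Hspg2 (0.898), Lama4 and Lamb2 (0.895) and Lamc1 and Nid1 (0.891). The lowest were between Lama4 and Nid2 (-0.874), Lamb1 and Nid2 (-0.827) and Nid2 and Sparc (-0.791), while Nid1 and Nid2 stood at 0.237. Among 6184 genes with a mean of at least 5 FPKM, those most like Lama4 were Prdm6 (0.955), Hand1 (0.953) and Msl1 (0.946). Those most like Hspg2 were Agrn (0.98), which encodes agrin, another heparan sulfate proteoglycan, Rbms2 (0.972) and Tln1 (0.957). Sparc lay closest to Sri (0.984), Txndc12 (0.98) and Col5a1 (0.98), Lamb1 to Cd24a (0.963), Slc25a24 (0.962) and Pxdn (0.958), and Lamb2 to Tgfb1 (0.97), Mgat1 (0.968) and H1f0 (0.965). Nid2 lay closest to Cbfa2t2 (0.973), Sox2 (0.972) and Mrps2 (0.969), Nid1 to Nfya (0.953), Rcn1 (0.937) and Myadm (0.927), and Lamc1 to Slc7a1 (0.917), Ddx19a (0.913) and Zfp518b (0.909). Likeness was weakest for Lama5, with Zmynd8 (0.87), Piezo1 (0.864) and Rab11fip4 (0.861), and for Lama1, with Gpc4 (0.866), P3h1 (0.798) and Pcolce (0.789).

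The levels of Nid1, Lama5 and Hspg2 at day 6, and of Lama5 at day 9, ran with the read share of the rRNA-type genes. At day 6 the share was 18.4%, 12.2% and 45.6% in WT and 18.6%, 11.6% and 6.10% in KO libraries, and at day 9 it was 4.42%, 9.78% and 14.9% in WT and 7.34%, 11.5% and 4.92% in KO libraries. Over the 6 libraries of a day, 20 relations were computed with the log2 share. For Nid1 at day 6 Pearson's r was -0.955 (exact permutation p = 0.00972, adjusted p = 0.0486) and Spearman's rho was -0.943 (exact permutation p = 0.0167, adjusted p = 0.0833). Without the 2 libraries farthest from the median share r was -0.95, and at day 9 it was -0.901 over all 6 (adjusted p = 0.0972). Hspg2 at day 6 gave r = 0.956 (exact permutation p = 0.00139, adjusted p = 0.0185), rho = 1 (exact permutation p = 0.00278, adjusted p = 0.0278) and r = 0.981 without those 2 libraries, and at day 9 r = -0.789 (adjusted p = 0.173). Lama5 turned direction too, with r = 0.947 at day 6 (exact permutation p = 0.00278, adjusted p = 0.0185, rho = 0.943 with adjusted p = 0.0833, r = 0.855 without 2 libraries) and r = -0.973 at day 9 (exact permutation p = 0.00278, adjusted p = 0.0185, rho = -1 with adjusted p = 0.0278, r = -0.944 without 2). Lamc1 (r = -0.87, adjusted p = 0.0972) and Lamb1 (r = -0.782, adjusted p = 0.139) at day 9 did not pass by exact permutation. With 3 libraries per genotype and day, no value within a genotype was computed. With the share as a covariate the KO to WT difference of Nid1 at day 6 went from 0.71 to -0.08, and no count of genes passing between genotypes changed from 0.

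**Figure D4:**
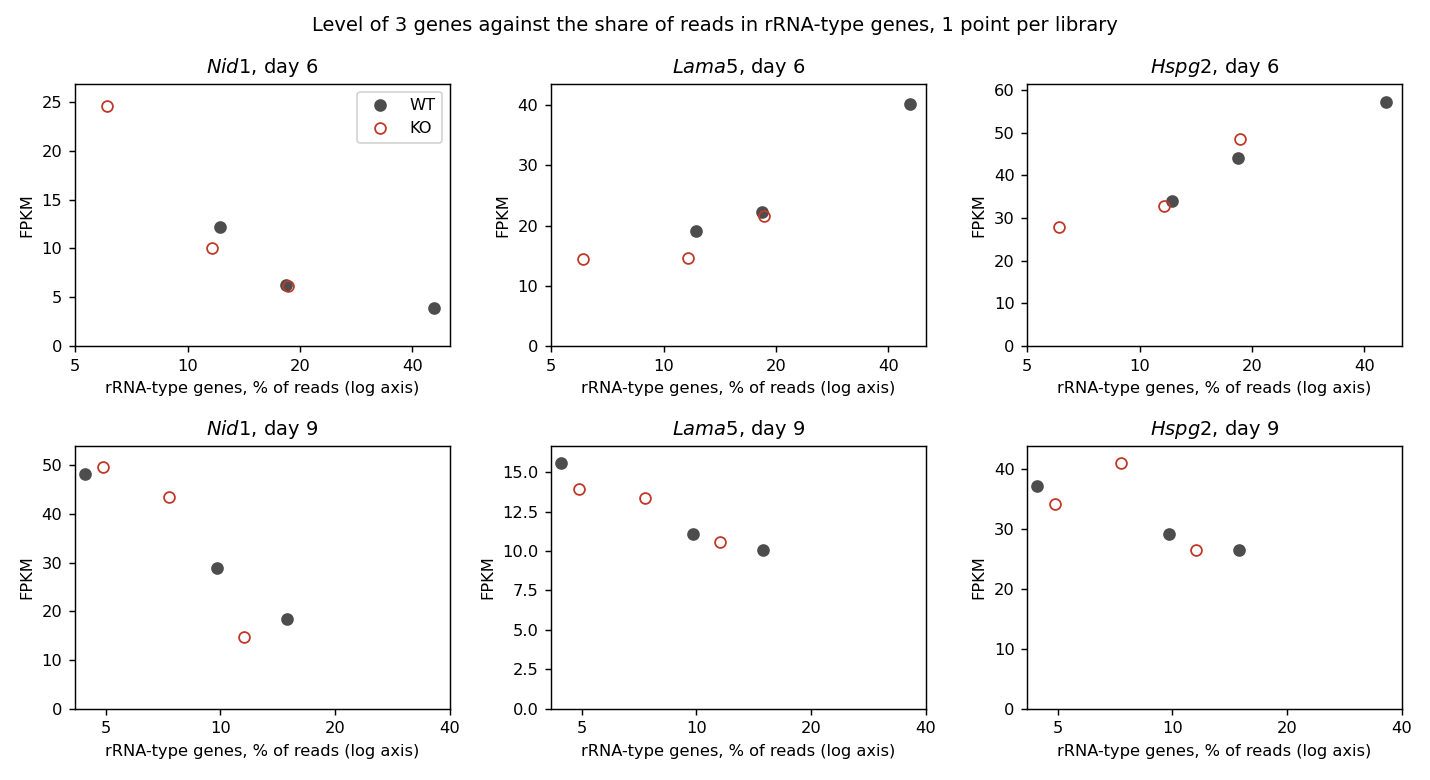
FPKM of Nid1, Lama5 and Hspg2 (vertical axes, from 0) against the percent of reads in rRNA-type genes (horizontal axis, log scale) in the 6 libraries of day 6 (top) and of day 9 (bottom), WT filled and KO open. Nid1 falls from left to right at both days (r = -0.955 and -0.901), and Lama5 and Hspg2 run upward at day 6 and downward at day 9.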

How the data were processed

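RNA-seq of 24 libraries was used as a deposited table of FPKM for 53465 genes. The submitters' processing notes name build mm10, featureCounts 2.0.1 for counting, HISAT2 2.2.1, DESeq2 1.30.1, R 4.1.0, Trimmomatic 0.39 and FastQC 0.11.9. The sources used here do not give how the authors computed FPKM or whether counting used strand. One KO day 0 column names its group but no numbered sample and was kept as an unnumbered library. Reads were recovered from the steps of the FPKM values with GENCODE vM21 exon lengths (53360 IDs matched): 95.5% to 96.9% of values of at most 50 reads were within 0.05 of a whole number. Library scaling in the FPKM values tracked size factors (median of ratios) to within 0.0506%. No 2 libraries of a group agreed within sampling noise.

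Genes with at least 1 FPKM in at least 3 libraries were tested with limma 3.58.1 (R 4.3.3) on log2(FPKM + 1), 8 group means and a prior variance trended on level (4.02 prior and 16 residual degrees of freedom), two-sided, with Benjamini-Hochberg adjustment over all 15159 genes and a threshold of 0.05. The fit was tested on simulated data. Shares were computed per library and tested by exact permutation within days (160000 combinations). Figures and permutations used matplotlib 3.10.9, scipy 1.17.1, numpy 2.4.6, pandas 2.3.3 and Python 3.11.15. The genes named are the 10 throughout, Atf3, up to 3 passing genes of each list with the largest change, and the 3 genes most correlated with each of the 10 (predicted genes and clone names passed over); marker and pathway genes given as lists serve as background. The members, lists, shares and tests were chosen with earlier results of these data known. Same-numbered KO and WT libraries deviated together at day 3 (correlations 0.655, 0.614 and 0.599) and not at the other days (-0.467 to 0.265), so the numbers were taken to pair the libraries at day 3. Differently numbered libraries gave -0.404 to -0.157 at day 3. They reached 0.676 at day 6 and 0.665 at day 9, so a correlation of this size does not by itself show pairing. Alternatives were another pseudocount, other filters and scalings, the compared groups alone, replicate blocks, voom on recovered reads, the rRNA-type share as a covariate (added after the data were seen) and each library left out. A test made for counts, planned as an alternative on the recovered reads, was not run because the deposited unit is FPKM. The list of laminin chain genes outside the 10 is not reported here.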

Additional observations from a re-analysis of the deposited data

How the results depend on the processing

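Of the 62 calls of the 10 genes in the 10 steps between days, 30 passed in every setting that could test them and 32 were lost in at least 1. Rescaling to TPM, which divides by the summed FPKM of all genes with the rRNA-type genes included, lost 28 of them. It moves the median of all genes by up to 0.78 (log2, WT day 6 to day 9) and by 0.51 between KO and WT at day 6. Equal sums without rRNA-type genes lost 7. Under TPM the counts of the 10 genes passing were 1 (WT day 0 to 3), 5 (WT day 0 to 6), 2 (KO day 0 to 3), 4 (KO day 3 to 6) and 1 (KO day 6 to 9). With the compared groups alone they were 1 (WT day 6 to 9) and 0 (KO day 6 to 9). With a library left out the WT day 6 to 9 count ran from 3 (without WT day 6 replicate 3 or WT day 9 replicate 1) to 8 (without WT day 6 replicate 2). The KO against WT counts ran from 0 to 1 at day 9 and in the mean over days. The cause was not tested. The Lama1 share difference ran from -9.76 to -6.19 points and the Lamb1 share from -2.50 to 0.095 points, turning positive without WT day 6 replicate 2 (0.014) or KO day 6 replicate 1 (0.095). A replicate block changed no count by over 1.5 times. It lost 6 single calls within days and 4 across all groups. Pairing the shares of days 3, 6 and 9 by number (9 pairs) gave -11.2 points for Lama1 and 4.30 for Lama4. The exact permutation p was 0.00391 for each (adjusted p = 0.00977), the smallest that 512 permutations allow two-sided. Day 0, where the Lama1 share was 2.83 points higher in KO cells, is left out there. Numbers were taken to pair libraries at day 3 only, so the pairs of days 6 and 9 may not be pairs. The test within days did not use the day 3 pairing. The KO against WT differences that changed sign had not passed in any setting: at day 3 under TPM Lamc1 (0.043), Lama5 (0.045), Lama4 (0.046), Nid2 (0.10), Lamb2 (0.022) and Lamb1 (0.18), and Lama4 with a pseudocount of 0.1 (0.0026), equal sums without rRNA-type genes (0.0052), voom (0.020) and a library left out (-0.018 to 0.023). At day 6 under TPM they were Lama5 (0.10), Hspg2 (0.42) and Nid2 (0.19). Without replicate 3 of both genotypes they were Lamc1 (-0.089), Hspg2 (0.045) and Nid1 (-0.14). With the rRNA-type share as a covariate they were Lamc1 (-0.20), Nid1 (-0.078) and Lamb1 (-0.12), and Nid1 at day 9 (-0.066). With a library left out, Lamc1 (-0.051 to 0.45) and Lamb2 (-0.20 to 0.30) changed sign at day 6, and Lamc1 (-0.47 to 0.18), Lama5 (-0.063 to 0.23), Hspg2 (-0.024 to 0.28) and Nid1 (-0.22 to 0.64) at day 9. Lama5 from day 6 to 9 in WT cells read 0.0065 under TPM. Lama4 is not tested at a filter of 5 FPKM. WT day 6 replicate 3 has the fewest reads, which limits the precision of low genes there.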
